A study of Mus musculus with 4 samples.

Results

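The genes described here code for receptors and granule proteins of neutrophils and inflammatory myeloid cells. They are the receptors Trem1, Clec4e, Clec4d, Clec7a, Fpr1, Fpr2 and Cd14 and the granule proteins Elane and Ltf, 9 genes described as a group. A gene was read by its probe set with a single gene symbol, and where several existed by the one with the highest mean over the arrays. Of the 9 genes, 7 had such a probe set, 1 each, out of 19938 genes named in this way. Fpr1 and Fpr2 had none and received no value.

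RNA of whole ears from 8-week-old female mice was hybridised to 4 arrays of the type Affymetrix Mouse Gene 1.0 ST, and each array is a group of its own. The untreated Traf6f/f ear (f/f untreated) carried floxed Traf6 alleles, and the Traf6f/f ear with imiquimod (f/f IMQ) carried the same alleles and received 10 mg per day of a cream containing imiquimod for 2 days. The untreated Traf6EKO ear (EKO untreated) came from the epithelial Traf6 knockout, and the Traf6EKO ear with imiquimod (EKO IMQ) received the same cream. Imiquimod activates the endosomal receptor TLR7 and is applied to mouse skin to model psoriasis, and TRAF6 relays signals of Toll-like, IL-1 and IL-17 receptors. No source used here names the promoter that drives the Cre recombinase, and all cells outside the epithelium that the knockout does not reach are part of the ear. The series' description gives n = 2, and no source used here says whether the RNA of 2 mice was pooled. With 1 array per group no value has a replicate error and no difference has a test, so every difference below is a description of these arrays. Levels are log2 values, on which a difference of 1 is 2-fold.

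Neutrophils carry surface receptors that detect microbes and damaged tissue, and granules filled with proteases and antimicrobial proteins. TREM1 amplifies inflammatory signals through the adaptor DAP12 (Tyrobp). The C-type lectins Mincle (Clec4e), MCL (Clec4d) and Dectin-1 (Clec7a) detect glycolipids or beta-glucans and signal through SYK and CARD9, the first pair by way of the Fc receptor gamma chain (Fcer1g). CD14 hands lipopolysaccharide to TLR4 and MD-2 (Ly96), and the formyl peptide receptors guide neutrophils toward bacterial peptides. Neutrophil elastase (Elane) is stored in azurophil granules and lactoferrin (Ltf) in specific granules, and the transcripts of both are made mainly while neutrophils mature in the bone marrow.

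Promoter windows are shown for the 4 receptor genes that were more than 2-fold higher in f/f with IMQ, and for Elane, a granule gene that was not. Each window runs from 250 bases before to 50 after the transcription start in RefSeq, build GRCm38.p6, and is written 5′ to 3′ on the strand of the gene. Capitals mark GAGGAA or its reverse complement TTCCTC, the core bound by the myeloid transcription factor PU.1.
Trem1 (chr17:48232489-48232788, plus strand): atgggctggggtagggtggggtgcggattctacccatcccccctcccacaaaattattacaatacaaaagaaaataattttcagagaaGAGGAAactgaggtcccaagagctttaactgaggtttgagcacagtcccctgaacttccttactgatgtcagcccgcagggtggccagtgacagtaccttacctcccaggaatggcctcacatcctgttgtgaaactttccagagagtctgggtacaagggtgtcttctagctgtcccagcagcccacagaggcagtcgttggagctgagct
Clec4e (chr6:123289822-123290121, minus strand): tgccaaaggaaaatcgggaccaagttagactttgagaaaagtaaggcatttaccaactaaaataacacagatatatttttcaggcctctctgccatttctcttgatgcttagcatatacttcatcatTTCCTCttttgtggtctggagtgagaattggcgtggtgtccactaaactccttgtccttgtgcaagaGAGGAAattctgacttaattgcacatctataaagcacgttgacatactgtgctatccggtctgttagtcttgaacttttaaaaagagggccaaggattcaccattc
Clec4d (chr6:123261857-123262156, plus strand): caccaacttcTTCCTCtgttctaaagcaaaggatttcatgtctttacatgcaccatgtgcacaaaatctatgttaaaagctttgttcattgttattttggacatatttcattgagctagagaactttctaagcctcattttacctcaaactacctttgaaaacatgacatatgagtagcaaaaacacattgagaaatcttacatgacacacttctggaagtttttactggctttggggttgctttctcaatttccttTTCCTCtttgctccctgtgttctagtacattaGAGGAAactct
Clec7a (chr6:129472736-129473035, minus strand): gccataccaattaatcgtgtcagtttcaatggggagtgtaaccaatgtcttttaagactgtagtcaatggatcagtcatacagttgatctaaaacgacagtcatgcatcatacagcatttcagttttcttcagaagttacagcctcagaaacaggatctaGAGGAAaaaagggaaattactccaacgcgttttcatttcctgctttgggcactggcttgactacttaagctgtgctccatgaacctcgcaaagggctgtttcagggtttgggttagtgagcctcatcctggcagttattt
Elane (chr10:79886062-79886361, plus strand): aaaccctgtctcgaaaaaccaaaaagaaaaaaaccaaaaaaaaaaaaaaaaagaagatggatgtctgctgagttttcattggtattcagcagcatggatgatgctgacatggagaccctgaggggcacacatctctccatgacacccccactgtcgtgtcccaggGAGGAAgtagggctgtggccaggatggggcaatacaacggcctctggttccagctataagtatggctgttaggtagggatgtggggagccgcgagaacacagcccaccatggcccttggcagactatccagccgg

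The core was found in 7 of the 8 windows used for the listed genes, namely those of Trem1, Clec4e, Clec4d, Clec7a, Fpr2, Elane and Ltf, and in 28.3% of 32851 promoter windows of the same length in the RefSeq table. In Clec4e one match began 56 bases upstream of the start, in Clec7a 90, in Elane 85 and in Trem1 162. The Clec4d window held 3 matches, 2 of which lay downstream of the start. The letters TTNNGNAA, a loose form of the site of C/EBP factors, occurred in the windows of Trem1, Clec4e, Clec4d, Fpr1, Fpr2 and Ltf and in 40.7% of all windows. The letters TGANTCA, the AP-1 site, occurred in none of the 8 windows and in 7.81% of all windows. Both strands were searched, and 0 matches of different motifs overlapped. These are matches of letters, and binding was not measured. The windows of the 4 receptor genes above all held the PU.1 core, and that of Fpr1 did not. Those of Elane and Ltf also held it, and both of these genes differed by less than 2-fold with IMQ, at low levels described below. No window of Cd14 was used here.

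Trem1, the amplifying receptor, showed the widest difference of the group. Its level was 4.56 without and 7.41 with IMQ in f/f, and 4.57 without and 4.72 with IMQ in EKO skin. The f/f IMQ array thus stood apart from the other 3, which lay close together. Those 3 levels were under the level floor described below for Clec4d, where a small change could be hidden by compression. With IMQ, Trem1 was 7.24-fold higher in f/f and 1.11-fold in EKO. Of all 19938 genes, 46 had a larger positive difference in f/f. Between the IMQ-treated ears it was 6.48-fold lower in EKO, the 9th lowest difference of the 19938 genes.

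Clec4e, which codes for Mincle, read 4.53 without and 7.10 with IMQ in f/f, and 4.51 without and 5.18 with IMQ in EKO skin. Both IMQ arrays lay above their untreated counterparts, the f/f one by 2.58 and the EKO one by 0.67. This EKO difference was the largest among the 7 genes and stayed below 2-fold (1.59-fold). With IMQ, Clec4e was lower in EKO than in f/f by 3.79-fold. Its levels on all arrays except f/f IMQ were also under that floor.

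Clec4d, the partner of Mincle, read 5.05 without and 6.70 with IMQ in f/f, and 5.20 without and 5.51 with IMQ in EKO skin. The order of the arrays was that of Clec4e except between the untreated ears, where EKO read above f/f. The differences were smaller, at 1.64 (3.13-fold) with IMQ in f/f and 0.31 in EKO. Its level stayed under the level floor on all 4 arrays. The floor is the median of the 19938 genes on each array, between 6.93 and 6.98, and low signals are compressed toward background.

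Clec7a, the beta-glucan receptor gene, read 6.31 without and 7.41 with IMQ in f/f, and 5.99 without and 5.99 with IMQ in EKO skin. It was 2.14-fold higher with IMQ in f/f, while the EKO arrays differed by -0.01. Clec7a also had the largest difference of the group between untreated ears, where EKO was lower by 0.31, a size reached by 6.01% of all genes. With IMQ, EKO was lower by 1.42 (2.68-fold).

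Cd14 read 6.35 without and 7.20 with IMQ in f/f, and 6.26 without and 6.29 with IMQ in EKO skin. The f/f IMQ array again lay above the other 3, by less than 2-fold (1.81-fold over f/f untreated and 1.88-fold over EKO IMQ). In EKO the IMQ difference was 0.02.

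The granule genes were flat. Elane read 5.49 without and 5.46 with IMQ in f/f, and 5.46 without and 5.44 with IMQ in EKO skin, so its IMQ differences were -0.04 in f/f and -0.02 in EKO. Ltf read 4.76, 4.91, 4.79 and 4.79 on the same arrays in the same order, with IMQ differences of 0.15 in f/f and 0.00 in EKO. Both genes were under the floor on all 4 arrays, where a small change could be hidden by compression. Of all genes, 86.1% had an IMQ difference in f/f at least as large in size as that of Elane, and 52.3% one as large as that of Ltf.

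**Figure D1:**
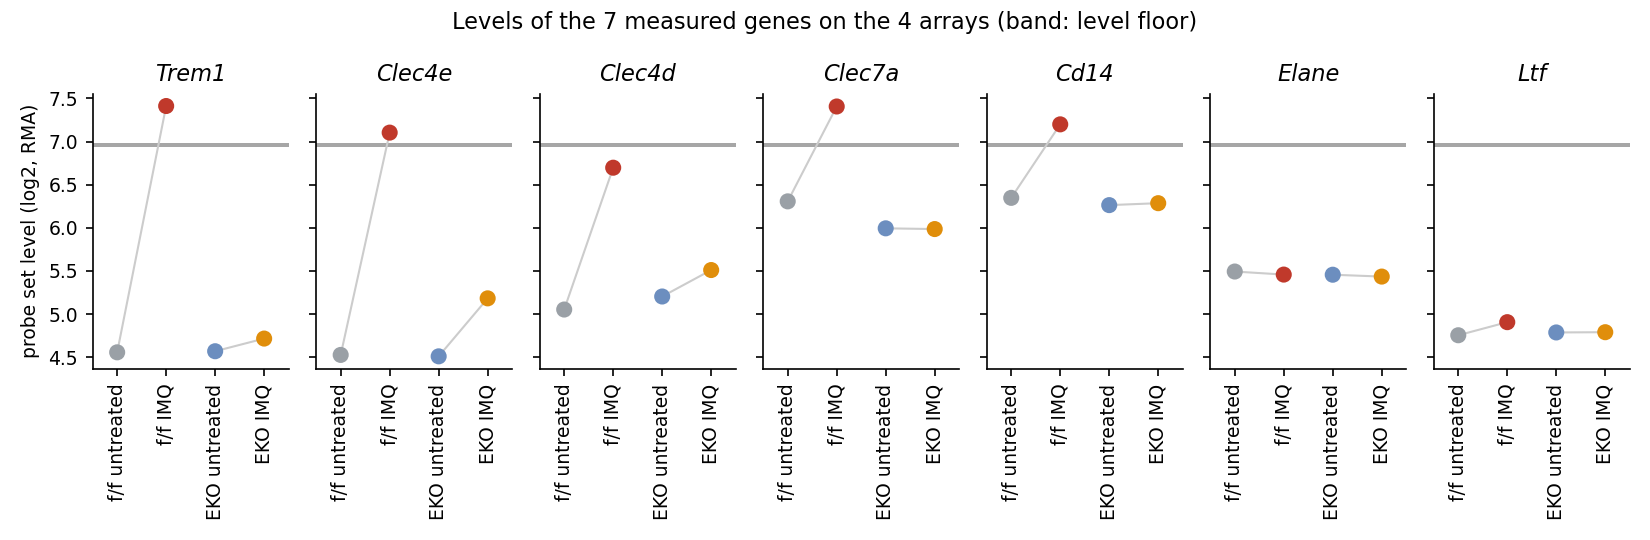
Probe set level (log2) of the 7 measured genes on the 4 arrays, 1 point per array; lines join the untreated and IMQ arrays of a genotype, and the grey band marks the level floor between 6.93 and 6.98. Trem1, Clec4e, Clec7a and Cd14 pass the floor on the f/f IMQ array alone, and Elane and Ltf are level.

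The pattern over the arrays was shared among the receptors. The f/f IMQ array was the highest for 6 of the 7 genes, the exception being Elane, and for 33.3% of all genes. A gene was counted as changed when it differed at least 2-fold and was at or above the floor on 1 or more of the arrays compared. With IMQ in f/f, Trem1, Clec4e and Clec7a, 3 of 7, were counted as higher, against 3.82% of the 10548 genes at the floor. Without the floor Clec4d joined them, 4 of 7 against 2.17% of all genes. The 4 genes at the floor (these 3 and Cd14) reached it through the f/f IMQ array alone, so passing it already required a high value there. The median difference of the 7 genes was 1.10, beside -0.01 for all genes.

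In EKO, 0.671% of the 10285 genes at the floor were counted as higher with IMQ and 0.0972% as lower. All 7 genes lay under the floor on both EKO arrays, so none could be counted and their differences are compressed. Without the floor, 0 of the 7 differed 2-fold or more. The percentage of all genes with a higher EKO difference was 1.24% for Clec4e, 5.30% for Clec4d and 16.2% for Trem1. For the rest of the 7 it ran from 40.9% to 53.1%. The median difference was 0.02, beside -0.01 for all genes, and 5 of 7 differences were above 0. Expressed as a share of the f/f difference, the EKO difference was 26.1% for Clec4e, 18.7% for Clec4d, 5.14% for Trem1, 2.64% for Cd14 and -0.77% for Clec7a. Among the 403 genes counted as higher in f/f the median share was 42.6%, with 66 genes below the share of Clec4e, 35 below that of Clec4d, 8 below that of Trem1, 6 below that of Cd14 and 3 below that of Clec7a. Clec4d and Cd14 were not among the 403 themselves. Genes selected for a high f/f value have that value inflated, which lowers the share. The EKO levels of these receptor genes lay under the floor, where compression can also lower the share.

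Between untreated ears, 0.0686% of the 10200 genes at the floor were counted as higher in EKO and 0.324% as lower. The 7 genes described here all lay under the floor on both untreated arrays, so none could be counted. Without the floor, 0 of the 7 differed 2-fold or more. Their differences ran from -0.31 (Clec7a) to 0.15 (Clec4d), with a median of -0.02. With IMQ all 7 genes were lower in EKO than in f/f, with differences from -2.70 (Trem1) to -0.02 (Elane) and a median of -1.19, beside -0.01 for all genes. Trem1, Clec4e and Clec7a were counted as lower, where 0.875% of 10282 genes were. Without the floor Clec4d was added, where 0.487% of all genes passed.

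The difference of the IMQ differences (EKO minus f/f) was -2.71 for Trem1, -1.91 for Clec4e, -1.34 for Clec4d, -1.11 for Clec7a and -0.83 for Cd14. It was -0.15 for Ltf and 0.01 for Elane. Trem1, Clec4e and Clec7a were counted as lower here, where 1.18% of 10646 genes were. This value, the f/f response and the comparison of IMQ-treated ears all contain the f/f IMQ array, so they are not separate observations, and the receptor differences rest on that 1 array. In RNA of whole ear, fewer cells of a type and less RNA per cell cannot be told apart.

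**Figure D2:**
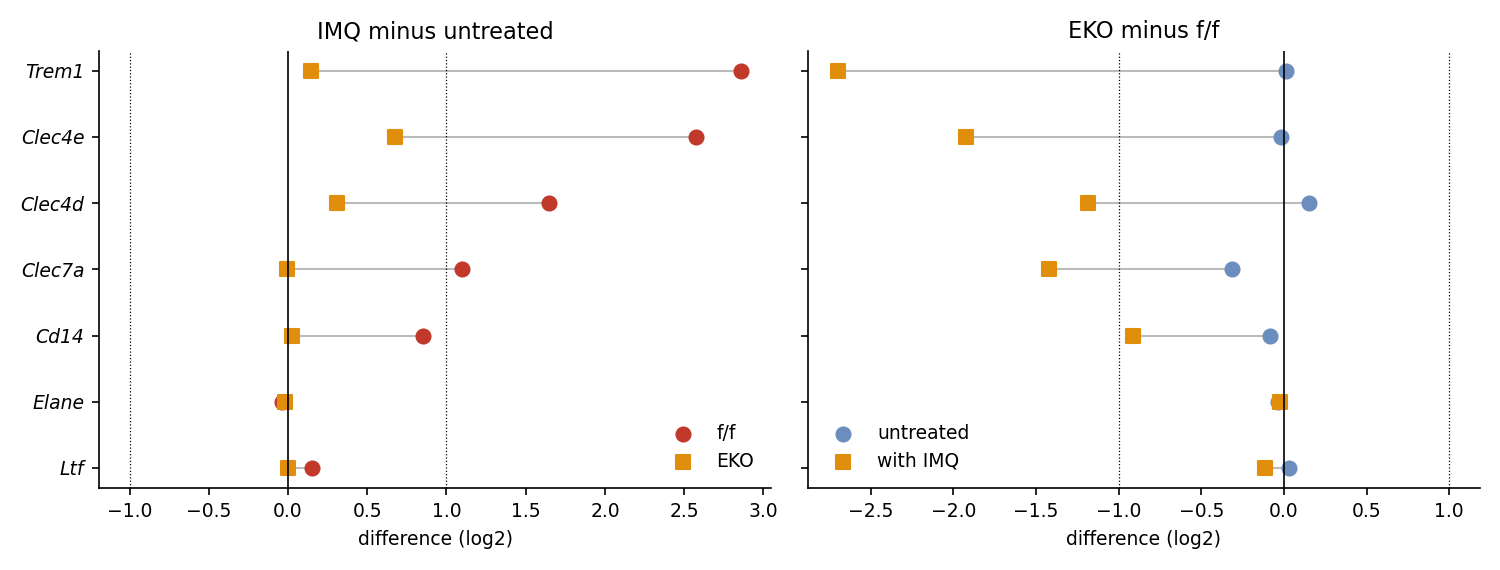
Log2 differences of the 7 measured genes; the left panel gives IMQ minus untreated in f/f (circles) and EKO (squares), the right panel EKO minus f/f in untreated (circles) and IMQ-treated (squares) ears, with dotted lines at 2-fold. Trem1 spans 2.86 in f/f to 0.15 in EKO, while both values of Elane lie near 0.

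**Figure D3:**
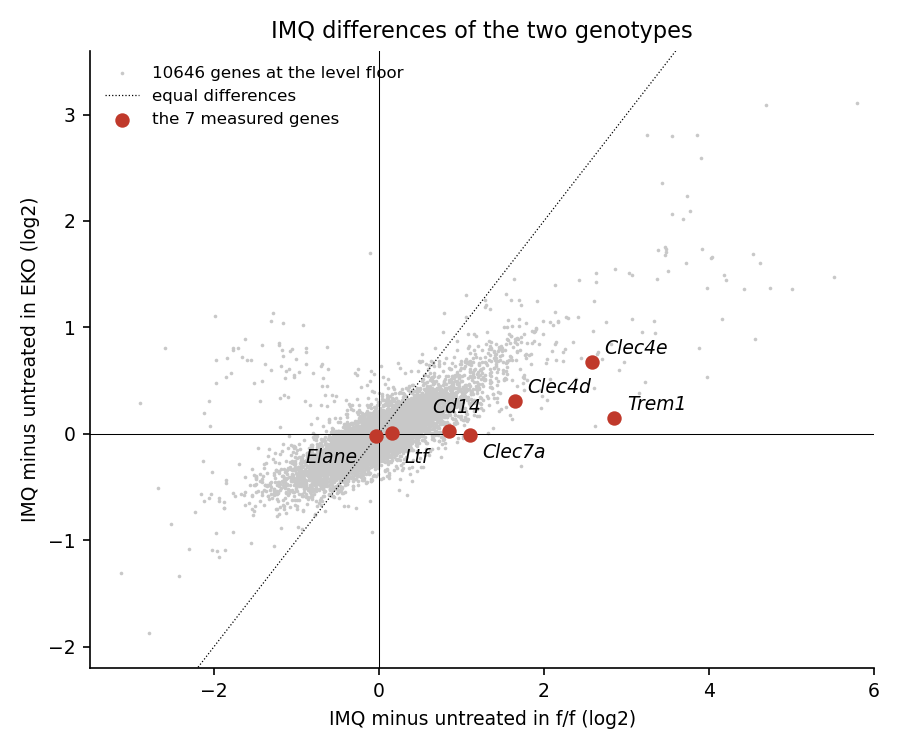
IMQ difference in f/f (x axis) and in EKO (y axis), log2, for the 10646 genes at or above the floor on 1 or more arrays (grey) and the 7 measured genes (red, drawn whether or not they reached it); the dotted line marks equal differences. The 5 receptor genes lie to the right of the line, Clec7a and Cd14 at an EKO difference near 0.

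Clec4d and Clec4e are direct neighbours in the gene order of mouse chromosome 6, at the end of a row of related lectin genes, which gives a comparison within a gene cluster. Next to Clec4d lies Clec4n, the gene of Dectin-2, which was at 0.44 with IMQ in f/f and -0.16 in EKO and stayed under the floor. Farther along the row, the IMQ difference of Clec4a2 was 0.66 in f/f and 0.64 in EKO, and that of Clec4a3 0.47 and 0.59. Both code for receptors of the DCIR family. Clec4b1, which was under the floor on all arrays, was at -0.53 and 0.22. The IMQ differences of Clec4a2 and Clec4a3 were thus of similar size in the genotypes, those of Clec4n and Clec4b1 differed in sign, and those of Clec4e were 2.58 and 0.67. Clec7a lies between Clec1a (-0.39 in f/f, -0.12 in EKO) and Olr1 (0.24 and 0.17). Of the other C-type lectin genes chosen as relatives, 20 of 20 were measured. The floor was reached by 8 of them in f/f and by 9 in EKO, and 11 lay under it on all arrays, so these could not be counted. None was counted as higher with IMQ in f/f, and 3 were counted as lower, as were 2.63% of genes at the floor: Cd209a (-2.42), Cd209d (-1.97) and Mgl2 (-1.94), markers of dendritic cells and alternatively activated macrophages. The same 3 genes were counted as lower in EKO, at -1.34, -1.11 and -1.16, where 0.0972% of genes at the floor were. Clec10a, under the floor on all arrays, was at -1.47 in f/f and -0.83 in EKO. The median of the list was -0.11 in f/f and -0.03 in EKO.

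Trem1 lies beside other TREM genes on chromosome 17. Its neighbour Trem3, an activating receptor gene, read 5.04 without and 5.77 with IMQ in f/f, and 4.91 without and 5.24 with IMQ in EKO skin. The next gene, Treml4, had IMQ differences of 0.68 in f/f and 0.21 in EKO, and Treml2 of 0.51 and 0.24. Trem2, a receptor gene of resident macrophages, was at 0.12 and -0.11. Of 10 TREM, TREM-like and CD300 genes, 8 were above 0 with IMQ in f/f and 0 were counted as higher, with a median of 0.43. Cd300lf had the largest difference of the list, at 0.75 in f/f and 0.14 in EKO. Of the 10, 8 lay under the floor on all arrays, Trem3, Treml4, Treml2 and Cd300lf among them, so they could not be counted and their differences are compressed.

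The adaptors that these receptors need differed little. Tyrobp, the adaptor of TREM1, read 9.30 without and 9.28 with IMQ in f/f, and 9.12 without and 9.21 with IMQ in EKO skin. Fcer1g, the adaptor of Mincle and MCL, had IMQ differences of 0.28 in f/f and 0.38 in EKO. The kinase gene Syk was at 0.06 and 0.02, and Card9, which was under the floor, at 0.06 and -0.03. Downstream, Plcg2 was at 0.61 in f/f and 0.11 in EKO and Bcl10 at 0.60 and 0.07. Of the 10 measured genes of this list of 12, 8 reached the floor in f/f and 7 in EKO. In either genotype 0 were counted as changed. Of all genes at the floor, 3.82% were higher and 2.63% lower in f/f. The median of the list was 0.28 in f/f and 0.04 in EKO. Tyrobp and Fcer1g are shared by macrophages, mast cells and other leukocytes of the ear.

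The partners of CD14 gave a mixed picture. Tlr4, the lipopolysaccharide receptor gene, was at -0.25 with IMQ in f/f and -0.12 in EKO, and Ly96, its co-receptor gene, at 0.40 and 0.14. Tlr2 was at 0.44 and 0.05, and Myd88, the adaptor gene downstream of most Toll-like receptors, at 0.98 and 0.27. Of the 11 genes, 8 reached the floor in f/f and 8 in EKO. The scavenger receptor gene Cd36, which adipocytes also express, was the only one counted as changed with IMQ in f/f. It was lower, at -1.12, as were 2.63% of genes at the floor. In EKO 0 were counted, where 0.671% of genes at the floor were higher and 0.0972% lower. The list had a median of 0.23 in f/f and 0.04 in EKO.

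Among the other receptors that draw neutrophils into tissue, Cxcr2, the receptor gene for CXC chemokines, read 6.18 without and 8.94 with IMQ in f/f, and 7.11 without and 8.16 with IMQ in EKO skin. Its IMQ difference was 2.76 in f/f and 1.05 in EKO, so it passed 2-fold in both, and untreated EKO lay above untreated f/f by 0.93. Ccr1 was at 1.41 and 0.30 but under the floor on all arrays, Ltb4r1 at 0.73 and -0.07, and Cxcr1 at 0.66 and 0.05. The measured relatives of the formyl peptide receptors, Fpr-rs3, Fpr-rs4, Fpr-rs6 and Fpr-rs7, lay under the floor with IMQ differences between 0.06 and 0.13 in f/f, and Fpr3 had no probe set of its own symbol. Of the 11 measured genes, Cxcr2 alone was counted as higher in f/f and in EKO, where 3.82% and 0.671% of genes at the floor were.

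Among 16 other granule genes, 7 reached the floor in f/f and 6 in EKO. With IMQ, 2 were counted as higher in f/f, where 3.82% of genes at the floor were. In EKO 0 were, where 0.671% of genes at the floor were. The azurophil granule genes Mpo (-0.00 with IMQ in f/f), Prtn3 (-0.12), Ctsg (0.01) and Bpi (-0.02) were under the floor on all arrays, as were Camp (-0.17) and Ngp (0.27) of the specific granules. Mmp8, a collagenase gene of the specific granules, was at 0.77 in f/f and 0.19 in EKO, and Chil3, a chitinase-like gene that macrophages also express, at 0.81 and 0.52, both under the floor. Above the floor on all arrays, Lyz2 (lysozyme) was at -0.72 and -0.16, the NADPH oxidase genes Cybb at -0.56 and -0.24 and Cyba at 0.05 and 0.04, and the gelatinase gene Mmp9 at 0.04 and -0.25. Lcn2 and Slpi, whose products are found in neutrophils and are also made by keratinocytes, were counted as higher in f/f. Lcn2 read 8.27 without and 10.91 with IMQ in f/f, and 8.15 without and 8.90 with IMQ in EKO skin, and Slpi differed with IMQ by 2.97 in f/f and 0.68 in EKO. The median of the 16 genes was 0.03 (f/f) and 0.05 (EKO). Whole ear cannot assign Lcn2 or Slpi to a cell type.

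Of 11 candidate ligands of these receptors, 3 were counted as higher in f/f and in EKO: Saa3 (3.92 and 1.74), S100a8 (5.01 and 1.36) and S100a9 (4.74 and 1.37). The floor was reached by 7 of the 11 in f/f and by 6 in EKO. Of all genes at the floor, 3.82% were higher in f/f and 0.671% in EKO. Pglyrp1, a peptidoglycan-binding protein gene whose product has been described as a TREM1 ligand, was at 0.51 and 0.11. Anxa1, whose protein acts on formyl peptide receptors, was at 0.14 and -0.12, and Sap130, a nuclear protein gene named as a Mincle ligand, at 0.08 and 0.03. The median of the list was 0.14 in f/f and 0.11 in EKO.

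**Figure D4:**
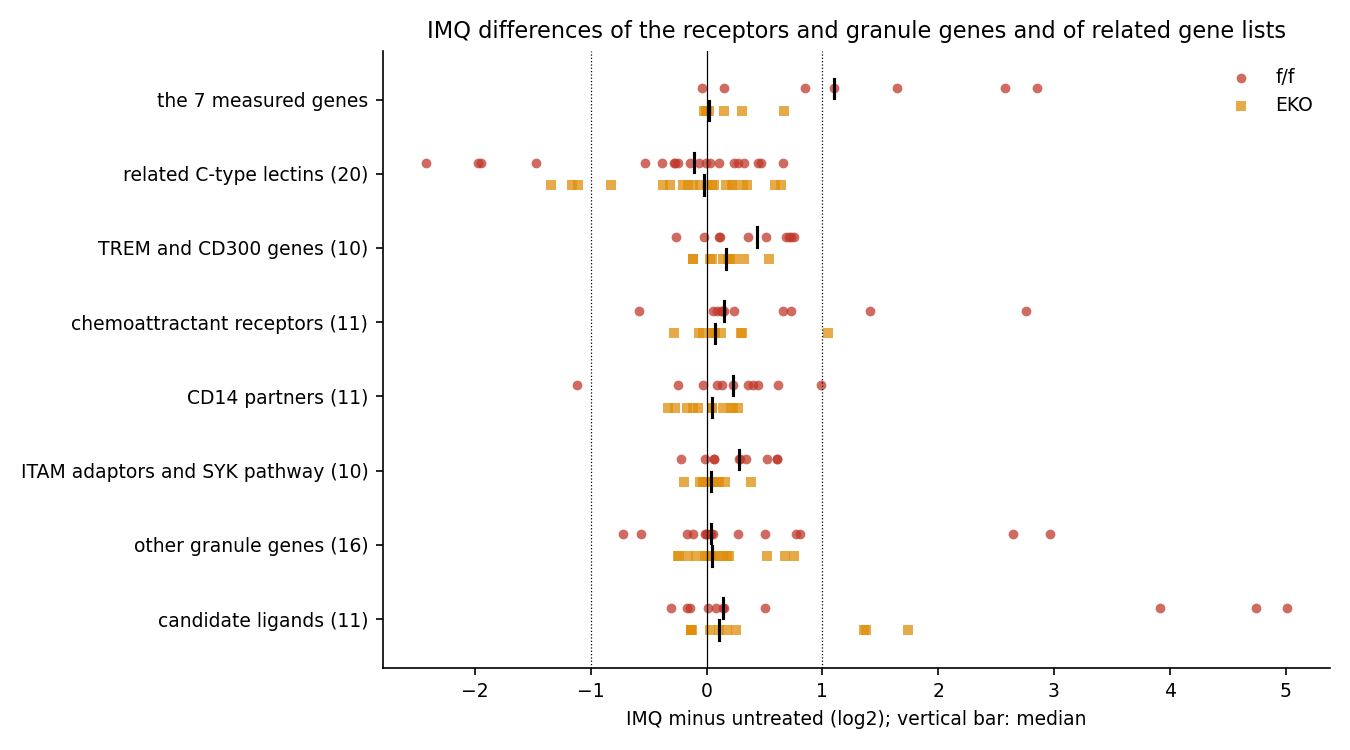
IMQ minus untreated (log2) for each gene in f/f (circles) and EKO (squares), by list, with the number of measured genes in brackets, a black bar at each median and dotted lines at 2-fold. The measured receptors and granule genes have a median of 1.10 in f/f, and the medians of the other lists drawn here lie between -0.11 and 0.43 in f/f.

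Markers of leukocytes moved with the receptor genes in part, and their part in the differences was not tested. Of 22 neutrophil markers 20 were measured. With IMQ in f/f, 14 reached the floor and 9 were counted as higher, where 3.82% of genes at the floor were. In EKO 13 reached it and 5 were counted as higher, where 0.671% of genes were. These 5 were S100a8, S100a9, Cxcr2, Stfa2 and Stfa3. The 20 markers had a median IMQ difference of 0.84 in f/f and 0.29 in EKO, beside 1.10 and 0.02 for the 7 genes described here. Their mean level was 6.57 without and 8.14 with IMQ in f/f, and 6.63 without and 7.24 with IMQ in EKO skin. Ly6g, a defining marker of mouse neutrophils, was under the floor on all arrays at 4.86, 5.45, 4.76 and 4.61 in that order. Csf3r, the G-CSF receptor gene, was counted as higher in f/f (1.45) and was at 0.22 in EKO. Of the 20 markers, 18 were above 0 with IMQ in f/f and 2 below. Il1r2, the marker with the highest mean level, was at -0.53 in f/f and -0.41 in EKO. Cd177, under the floor on all arrays, was at -0.22 and -0.04. Keratinocytes also express S100a8, S100a9 and Cxcr2 from this list. Whole ear cannot assign the others, Stfa2 and Stfa3 among them, to a cell type either. The 9 pan-leukocyte markers had mean levels of 8.77, 8.87, 8.66 and 8.75 on the same arrays. Of these 9, 8 reached the floor, and 0 were counted as changed.

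Markers of monocytes and macrophages did not follow the receptors. Of the 13 measured, 0 were counted as higher and 1, Cd163, as lower with IMQ in f/f, and their mean level was 8.72, 8.51, 8.48 and 8.52 on the arrays in the same order. The mean of the 12 dendritic and Langerhans cell markers was 8.51, 8.05, 8.44 and 8.11, that of the 8 mast cell markers 7.65, 7.50, 7.46 and 7.35, and the 6 eosinophil and basophil markers lay under the floor throughout. Tissue layers shifted too. The mean of the 9 measured keratinocyte markers was 11.32, 11.59, 11.55 and 11.60, that of the 8 fibroblast markers 10.30, 9.96, 10.16 and 9.95, and the means of the skeletal muscle markers 10.97, 10.02, 10.77 and 10.46 and of the adipocyte markers 10.25, 8.73, 9.71 and 9.24 were lowest in f/f IMQ skin. The adipocyte markers had a median IMQ difference of -1.56 in f/f and -0.38 in EKO. The part of these shifts in the receptor differences was not tested. Traf6 itself was at 9.51, 9.30, 9.65 and 9.35 in that order and so was not lower on the EKO arrays, and no source used here places its probes relative to the deleted part.

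The genes most like each changed receptor were found by the Euclidean distance between log2 profiles over the 4 arrays, each centred on its own mean, among 10645 other genes that reached the floor. For Trem1 the nearest was Uox (distance 0.19), followed by Sprr2i (0.27), the neutrophil-attracting chemokine gene Cxcl2 (0.28), Slpi (0.52) and Lcn2 (0.53). For Clec4e the nearest was Lcn2 (0.12), followed by the chemokine gene Ccl3 (0.25), Slc5a8 (0.27), the growth factor gene Hbegf (0.27) and Slpi (0.28). For Clec7a they were the transporter gene Slc1a1 (0.10), the immune checkpoint ligand gene Cd274 (0.13), Tgfa (0.18), the epithelial cytokine gene Il17c (0.19) and S100a7a (0.19). Slpi and Lcn2 stood on the lists of both Trem1 and Clec4e, and the list of Clec7a shared no gene with them. Within the group, Elane and Ltf were 0.13 apart, Clec7a and Cd14 0.41, Trem1 and Clec4e 0.56 and Clec4d and Clec7a 0.57. With 4 points per profile, many genes can lie close together.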

How the data were processed

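RNA of whole mouse ear was read on 4 Affymetrix Mouse Gene 1.0 ST arrays, grouped by sample title. The authors deposited 1 log2 level per probe set, made with RMA per the submitters' processing notes, which give no version; the scale was inferred from values between 2.58 and 13.8. RMA corrects background, equalises the distributions of the arrays and combines a set's probes. It hides shifts of most genes and compresses low signals. Array medians were 6.52 to 6.57 and correlations between arrays 0.981 to 0.995, and the number of arrays limits the precision.

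Of 35556 probe sets, 21789 had 1 gene symbol in the platform annotation, 1621 several and 12146 were not listed; the first kind was used. Entrez identifiers matched 21698 to RefSeq names (GRCm38.p6, also the source of gene order and promoters), and 0 symbols differed. Differences were counted at 2-fold with the level floor; no test was made. Named are all members, up to 4 list genes with the largest f/f difference and those a sentence needed. Also named are up to 3 markers per list with the highest mean level, markers a sentence needed, and the 5 most alike profiles per changed receptor. Members, lists and rules were chosen with earlier results of these data known. The counting was tested on simulated data. Python 3.11.15, numpy 2.4.6, pandas 2.3.3, matplotlib 3.10.9 and, for alternative scalings, R 4.3.3 with limma 3.58.1 were used.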

Additional observations from a re-analysis of the deposited data

Results flagged for a closer look

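Clec7a had IMQ differences of opposite sign in the genotypes, 1.10 in f/f and -0.0085 in EKO (log2), with 1 array per group. The difference between them was not tested, and the EKO value is so close to 0 that it became 0.01 after median scaling and 0.02 after cyclic loess.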

How the results depend on the processing

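Each difference was recomputed under 3 other scalings (median, cyclic loess, quantile), without the floor, with a floor at the 25th percentile, with probe sets of a gene averaged and at 1.5-fold. Averaging could not alter the values of the 7 genes, which have 1 probe set each. The counts of changed genes among the 7 stayed within 1.5 times in all 5 comparisons. They went from 3 to 4 in the 3 comparisons that hold the f/f IMQ array, by Clec4d without the floor or with the lower one and by Cd14 at 1.5-fold. They stayed at 0 in the other 2, where none of the 7 reached the floor of the main setting. At 1.5-fold the counts over all genes went from 680 to 2079 (IMQ in f/f), 79 to 357 (IMQ in EKO), 40 to 174 (EKO against f/f untreated), 133 to 477 (with IMQ) and 239 to 882 (difference of differences), since the threshold is lower. Another scaling moved no difference of the 7 genes by more than 0.06 (log2) and moved the median of all genes by at most 0.054. In 10 cases it changed the sign of a difference no larger than 0.04 in size. No paired analysis was possible because each group holds 1 array, and for the same reason no array could be left out. Low signal limits Elane, Ltf and Clec4d, which lay under the floor throughout, and the other receptors on every array except f/f IMQ.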
